A study of Mus musculus with 8 samples.

Results

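The nuclear genes for subunits of the mitochondrial respiratory chain were followed in mouse embryonic fibroblasts, in 3 lines of induced hepatocyte-like cells and in primary hepatocytes. A gene was a member when at least 1 probe set carrying its symbol alone matched the naming pattern of complex I (Nduf genes of the a, b, c, s and v series), complex II (Sdha to Sdhd), complex III (Uqcr genes) or complex IV (Cox4 to Cox8 genes). The rule found 62 members among the 17097 genes of the array: 34 for complex I, 4 for complex II, 7 for complex III and 17 for complex IV. They were covered by 111 probe sets, 31 members had at least 2, and each gene is given by its brightest probe set, averaged over the 8 arrays. The rule uses names and mean brightness and no measured difference, but it was set with earlier results of these data known. Subunits with other symbols, or whose probe sets name several genes, were not analysed here, among them Cox7b and Uqcrh. The probe sets named Ndufs5-ps carry the symbol of a processed copy of Ndufs5 and may bind the RNA of either gene.

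The fibroblasts (MEF, 2 arrays) were isolated from C57/B6 embryos at embryonic day 13.5; the label of MEF 1 adds that head and internal organs were removed. The lines (iHep, 1 array each, passage 10) were fibroblasts transduced with replication-defective retroviruses and grown in Hep medium, which holds dexamethasone, nicotinamide, insulin and growth factors. All lines carry Hnf4a: 4a3 has it with Foxa3, 4a3CK with Foxa3 and the stem cell factors c-Myc and Klf4, and 4a1CK with Foxa1 and the same stem cell factors. The labels give no strain for the lines. The hepatocytes (PH, 3 arrays) came from male C57/B6 mice aged 8 to 10 weeks by collagenase perfusion and were then cultured in Hep medium as well. The third hepatocyte array has no number in its label and is called PH 3. Each line is a single array, the 3 lines carry different factors, and no label says that the arrays of a group came from separate animals or cultures, so the p-values reflect no more than the spread among these arrays. Values are log2 signals, on which a difference of 1 is a 2-fold change.

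The respiratory chain carries electrons from reduced cofactors to oxygen and pumps protons across the inner mitochondrial membrane, and ATP synthase uses the resulting gradient. Complex I takes electrons from NADH and complex II from succinate; ubiquinone hands them to complex III, and cytochrome c passes them on to complex IV, which reduces oxygen. Hepatocytes are rich in mitochondria and draw on the chain for gluconeogenesis, urea synthesis and fatty acid oxidation. Core subunits hold the redox centres, while the many accessory subunits assist assembly and stability. Several complex IV subunits exist as a common isoform and a tissue-restricted one.

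The labelled cell types were checked first. A gene passed the test, and is said to rise or fall, at an adjusted p under 0.05 over all genes in limma's fit of the 8 arrays. Of 10 hepatocyte markers, 9 rose in the hepatocytes against the fibroblasts and 1 rose in the lines; the mean signal over the 10 was 4.26 on both MEF arrays, 4.95 to 7.87 in the lines and 10.04 to 10.45 in PH. Of 8 fibroblast markers, 7 fell in PH and 7 fell in the lines against MEF, with array means of 8.82 to 10.25 in MEF, 3.52 to 3.97 in the lines and 4.41 to 4.57 in PH. Of 7 macrophage markers, the mean signal was 5.55 to 5.83 in MEF, 4.53 to 4.71 in the lines and 5.08 to 5.42 in PH. Against MEF, Lyz2 fell by 4.18 in PH and by 5.40 in the lines and Adgre1 fell by 1.45 and by 1.91, while Cd14 rose by 3.59 in PH. Of 4 cholangiocyte markers, Krt19 rose by 5.03 in the lines against MEF and by 2.81 against PH and the others did not pass; the array means were 5.31 to 5.71 in MEF, 6.30 to 7.28 in the lines and 6.55 to 6.77 in PH. The part of these other cells in any difference below was not tested, and in bulk RNA fewer cells of a type cannot be told apart from less RNA per cell.

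One array stood apart. The median signal over all genes was 5.80 on PH 3, against 4.93 and 4.94 on PH 1 and PH 2 and 4.97 to 5.06 on the other arrays. Its excess over the other hepatocyte arrays had a median of 0.71 over all genes and of 0.57 over the respiratory chain genes. The hybridization controls, RNAs added to each sample in known amounts, averaged 8.03 to 8.61 on the MEF arrays, PH 1 and PH 2, and 8.95 to 9.14 on the lines and PH 3. PH 1 and PH 2 differed from each other by an SD of 0.16 over genes, while the 2 MEF arrays differed by an SD of 0.57. Results are therefore given as deposited, and again after each array's median was subtracted or PH 3 was left out. The sample numbers of the deposition fall into 2 runs, one with MEF 2, the 3 lines and PH 3, the other with MEF 1, PH 1 and PH 2. The labels do not say that these runs were processed apart, and the lines lie in only one of them.

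Promoters are shown for Ndufa6, Ndufa11, Sdhd, Cox8a and Cox6b2. Others named below, such as Cox7a2l and Ndufb11, also have an entry in the RefSeq promoter table of GRCm38.p6 and are not shown. Promoters run from 250 bases before to 50 bases after the transcription start, and 48 of the 62 members had an entry. Capitals mark matches, on either strand, to CGCATGCG, a word of the nuclear respiratory factor 1 (NRF1) motif, or to CCGGAAG, a word of the ETS motif bound by factors such as GABP; both families are known activators of respiratory genes. Ndufa6 lies on the minus strand at chr15:82354242-82354541, Ndufa11 on the plus strand at chr17:56717512-56717811, Sdhd on the minus strand at chr9:50603800-50604099, Cox8a on the minus strand at chr19:7217567-7217866 and Cox6b2 on the minus strand at chr7:4753045-4753344. The sequences read 5′ to 3′ along each gene's strand.
Ndufa6: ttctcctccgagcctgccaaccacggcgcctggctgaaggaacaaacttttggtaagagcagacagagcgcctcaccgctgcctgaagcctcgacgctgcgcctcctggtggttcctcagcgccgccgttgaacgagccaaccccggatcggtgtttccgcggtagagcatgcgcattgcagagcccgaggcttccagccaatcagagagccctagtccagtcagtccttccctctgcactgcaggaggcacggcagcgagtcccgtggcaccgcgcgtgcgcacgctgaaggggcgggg
Ndufa11: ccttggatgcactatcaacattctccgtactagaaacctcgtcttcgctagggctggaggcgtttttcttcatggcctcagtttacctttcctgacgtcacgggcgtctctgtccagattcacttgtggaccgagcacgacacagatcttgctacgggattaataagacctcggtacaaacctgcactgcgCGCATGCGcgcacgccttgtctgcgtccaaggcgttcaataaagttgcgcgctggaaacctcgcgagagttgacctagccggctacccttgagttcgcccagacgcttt
Sdhd: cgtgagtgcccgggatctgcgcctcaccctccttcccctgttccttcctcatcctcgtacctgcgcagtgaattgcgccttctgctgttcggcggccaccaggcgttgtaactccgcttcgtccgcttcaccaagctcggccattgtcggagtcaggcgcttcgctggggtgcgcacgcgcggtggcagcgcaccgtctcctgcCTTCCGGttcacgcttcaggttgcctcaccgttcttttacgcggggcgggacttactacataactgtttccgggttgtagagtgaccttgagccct
Cox8a: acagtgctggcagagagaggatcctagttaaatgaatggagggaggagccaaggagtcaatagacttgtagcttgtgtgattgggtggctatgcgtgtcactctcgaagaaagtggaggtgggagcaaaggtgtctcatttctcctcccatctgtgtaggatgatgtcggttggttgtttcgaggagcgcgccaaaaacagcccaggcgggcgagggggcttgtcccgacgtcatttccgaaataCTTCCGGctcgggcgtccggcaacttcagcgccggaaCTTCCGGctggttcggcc
Cox6b2: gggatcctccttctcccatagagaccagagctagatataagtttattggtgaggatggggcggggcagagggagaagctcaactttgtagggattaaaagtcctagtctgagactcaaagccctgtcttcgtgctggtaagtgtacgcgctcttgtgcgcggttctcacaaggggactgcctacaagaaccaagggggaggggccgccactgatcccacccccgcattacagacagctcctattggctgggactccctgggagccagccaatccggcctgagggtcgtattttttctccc
The NRF1 word stood once in the Ndufa11 promoter and the ETS word was found in those of Sdhd and Cox8a. Neither was found in those of Ndufa6 and Cox6b2, nor in those of Cox7a2l and Ndufb11, which are not shown. Only these exact letters were sought, so other forms of the motifs in these promoters were not counted. The Cox6b2 promoter, of a gene known for its expression in testis, held 10 CpG dinucleotides, against 19 in Cox8a, 25 in Ndufa11, 27 in Ndufa6 and 29 in Sdhd. Over the 48 promoters, the NRF1 word was found in 5 (10.4%), against 3.26% of the promoters of 13605 array genes, and the ETS word in 9 (18.8%), against 15.0%. The word AAGATGG of the YY1 motif was found in 8 (16.7%), against 7.61%, and the E-box CACGTG, a word that c-Myc binds, in 2 (4.17%), against 10.2%. These shares describe letters in a window and were not tested.

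Hepatocytes and fibroblasts were compared to ask how far the chain's transcripts differ between the target and the starting cell. No member passed the test in this comparison. Over the 62 members the median difference, PH minus MEF, was 0.24, beside 0.25 over all genes, with 50 members above 0 and 12 below. In limma's fit 0 of 62 members passed, where 5.97% of all genes did, and the lowest limma adjusted p was 0.136. The median standard error of a member's difference was 0.29. With array medians subtracted the members' median was -0.015, with 31 above 0 and 31 below, and 8.35% of all genes passed.

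The largest differences were those of Ndufa6 and Sdhd. Sdhd, one of the membrane anchors of complex II and part of its ubiquinone site, read 7.78 and 8.03 on the MEF arrays and 8.52, 8.55 and 9.20 on the PH arrays. The groups did not overlap, and the difference was 0.85 ± 0.28 (SE, 2 against 3 arrays; limma adjusted p = 0.136). After array medians were subtracted, Sdhd was the only member that rose, by 0.59 ± 0.14 (limma adjusted p = 0.0497). Its only probe set is of a kind whose name marks that it can bind several transcripts. Sdhd therefore dropped out of the fit without such probe sets. Within the runs of sample numbers, Sdhd was higher in PH by 1.17 and by 0.75 as deposited, and by 0.35 and 0.78 after subtraction.

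By complex, the median of PH minus MEF as deposited was 0.21 for complex I, 0.25 for complex II, 0.42 for complex III and 0.21 for complex IV. After subtraction of array medians the values were -0.048, -0.003, 0.16 and -0.045, beside -0.008 over all genes. None of the 7 complex III members passed on either scale. With medians subtracted, the complex III median was 0.41 in the run of sample numbers with PH 1 and PH 2 (7 of 7 above 0) and -0.34 in the run with PH 3 (0 of 7 above 0). Over all 62 members it was 0.16 (46 above 0) and -0.35 (9 above 0), and over all genes 0.051 and -0.13, in the same order. As deposited, 22 members lay above MEF on every PH array and none below, where 30.1% and 7.9% of all genes did; with medians subtracted 4 lay above and 9 below, against 20.9% and 19.3%. Without PH 3 the median over all 62 members was 0.093 as deposited and 0.12 with medians subtracted, beside 0.01 and 0.041 over all genes.

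**Figure D1:**
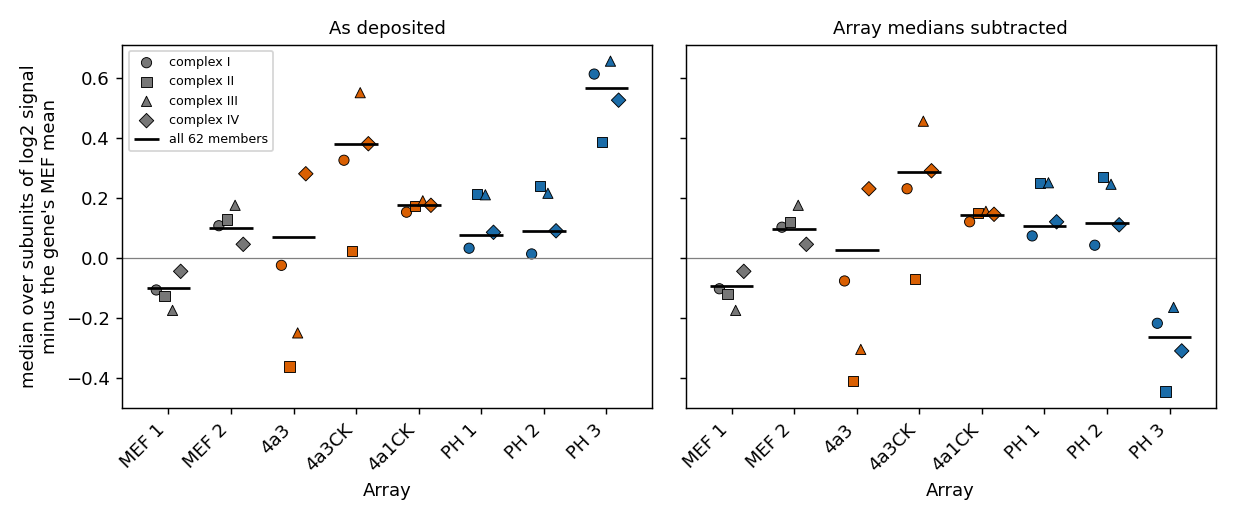
Median over the subunits of each complex of the log2 signal minus the gene's mean over the 2 MEF arrays, for each of the 8 arrays (x axis), as deposited (left) and with array medians subtracted (right); symbols are complexes, bars all 62 members, and colours the groups MEF (grey), iHep (orange) and PH (blue). PH 3 has the highest median of all members as deposited (0.57) and the lowest after subtraction (-0.27), while line 4a3 has complex II and III below and complex IV above the MEF mean on both scales.

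Among the core subunits of complex I, which carry the flavin and the iron-sulphur clusters, none passed between hepatocytes and fibroblasts. Ndufs1, the largest of them, read 7.78 and 7.98 on MEF and 7.48, 7.48 and 8.65 on PH. Ndufs8 read 9.42 and 9.81 on MEF and 8.96, 8.86 and 9.54 on PH, a difference of -0.49, and its other probe sets did not all give the same sign. In both genes the groups overlapped only through PH 3. Ndufs3, Ndufs7, Ndufv1 and Ndufv2 had differences of 0.33, 0.45, 0.35 and -0.017, each with overlapping groups. In complex II the flavoprotein Sdha differed by 0.048, the iron-sulphur subunit Sdhb by -0.041 and the membrane anchor Sdhc by 0.46. Sdhc read 9.11 and 9.13 on PH 1 and PH 2, but 8.62 on PH 3, against 8.37 and 8.63 on MEF; it was the 1 member not higher on PH 3 than on PH 1 and PH 2. In complex III the iron-sulphur protein Uqcrfs1 read 8.76 and 8.96 on MEF and 9.07, 9.06 and 9.75 on PH, without overlap (difference 0.43).

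The lines were then compared with the fibroblasts, the starting cell type. Ndufa6 rose in the lines, and no other member passed as deposited. Over the 62 members the median, iHep minus MEF, was 0.19, beside 0.16 over all genes, with 42 members above 0; it was 0.055 without MEF 1, 0.29 without MEF 2 and 0.014 with the run of sample numbers as a block. Of 62 members 1 (1.61%) passed, where 6.66% of all genes did.

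Ndufa6, an accessory subunit of the arm of complex I that reduces ubiquinone, read 8.65 and 8.63 on the MEF arrays. It read 10.38 in 4a3, 9.75 in 4a3CK and 10.33 in 4a1CK, and 9.30, 9.28 and 9.91 on the PH arrays. All 3 lines lay above both MEF arrays, and the PH arrays lay between, with PH 3 above line 4a3CK. The difference was 1.51 ± 0.30 (SE, 3 against 2 arrays; limma adjusted p = 0.0211), a 2.85-fold change. It passed in each of the 5 scalings tried (as deposited, medians subtracted, quantile normalization, and without PH 3 on the deposited scale or with medians subtracted), with limma adjusted p between 0.00587 and 0.0211, but lost it when MEF 1 (0.125), MEF 2 (0.125), 4a3 (0.0818) or 4a1CK (0.0657) was left out of the limma fit. Within the run of sample numbers that holds the lines, it was higher by 1.52 than on MEF 2.

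With array medians subtracted, 7 members passed against MEF, 6 higher and 1 lower, where 16.4% of all genes did. Beside Ndufa6, the higher ones were Cox7a2l, Uqcrfs1, Sdhd, Ndufb11 and Cox8a. Cox7a2l, named for complex IV, read 9.08 and 8.26 on MEF and 10.34, 9.67 and 10.32 in 4a3, 4a3CK and 4a1CK. All lines lay above both MEF arrays, and the difference after subtraction was 1.38 ± 0.30 (limma adjusted p = 0.0273); 2 further probe sets of the gene gave 1.17 and 1.34 as deposited. Uqcrfs1 read 9.33, 9.90 and 10.15 in the lines in the same order, all above MEF, and rose by 0.87 ± 0.24 (limma adjusted p = 0.0495). Sdhd, again by its only probe set, which can bind several transcripts, read 8.69, 8.97 and 8.65. It rose by 0.81 ± 0.14 (limma adjusted p = 0.0142), to levels that overlapped those of the hepatocytes.

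Cox8a, the common isoform of the smallest complex IV subunit, varied little among the lines. It read 9.44 and 9.47 on MEF, 10.23, 10.19 and 10.15 in the lines, and 9.36, 9.42 and 9.98 on PH. The lines lay above every other array, and the difference from MEF after subtraction was 0.68 ± 0.12 (limma adjusted p = 0.0164). A second probe set of Cox8a gave 0.84 as deposited, against 0.73 for the one used. Ndufb11, an accessory subunit of the membrane arm of complex I, read 9.97 and 10.04 on MEF and 10.96, 10.61 and 10.70 in the lines, and rose by 0.70 ± 0.16 (limma adjusted p = 0.0291). The member that fell was Ndufs5-ps, with 9.51 and 9.68 on MEF and 8.49, 9.25 and 8.60 in the lines (-0.87 ± 0.23 after subtraction, limma adjusted p = 0.0428).

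**Figure D2:**
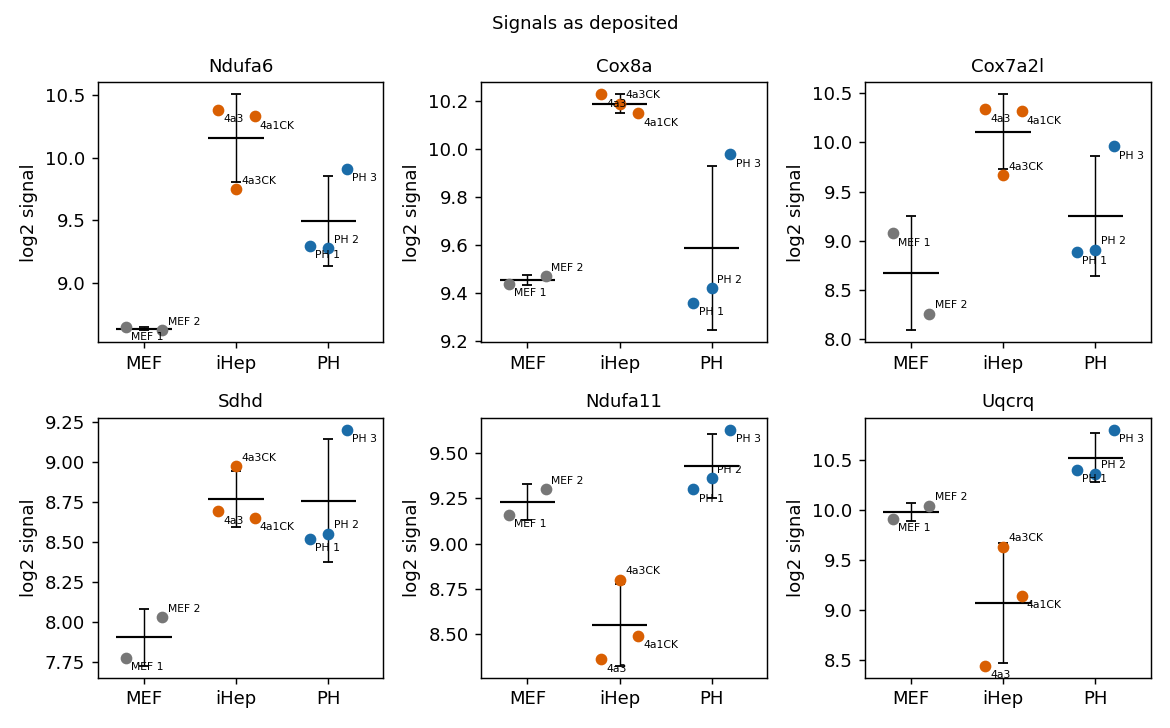
Log2 signal as deposited (y axis, a separate range for each gene) of 6 subunits in the groups MEF (2 arrays), iHep (3 lines) and PH (3 arrays); points are arrays, horizontal bars group means and error bars 1 SD. Ndufa6, Cox8a, Cox7a2l and Sdhd lie higher in all 3 lines than on both MEF arrays, while Ndufa11 and Uqcrq lie lower in all 3 lines than on every other array.

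By complex, the median of iHep minus MEF was 0.14 for complex I, -0.078 for complex II, 0.15 for complex III and 0.30 for complex IV, and 0.082, -0.14, 0.094 and 0.24 after subtraction. Over all genes it was 0.16 as deposited and 0.1 after subtraction. Of the 17 complex IV members 14 lay above 0 on both scales. Among the common complex IV isoforms the difference as deposited was 0.31 for Cox4i1, 0.30 for Cox6a1, 0.24 for Cox6b1, 0.37 for Cox7a2 and 0.73 for Cox8a, all without overlap with MEF and none passing on that scale. Against MEF 2 alone, the 1 fibroblast array in the lines' run of sample numbers, complexes I and III changed sign. The medians were -0.014 for complex I, -0.14 for complex II, -0.042 for complex III and 0.24 for complex IV, beside 0.15 over all genes. As deposited, 24 members lay above both MEF arrays in all 3 lines and 7 below, where 42.6% and 18.4% of all genes did. After subtraction 22 lay above and 8 below, against 36.5% and 21.4%.

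Leaving out PH 3, which takes no part in this comparison but shares its estimate of the spread, raised the count to 13 of 62, 11 higher and 2 lower, where 33.9% of all genes passed. Cox8a was then higher by 0.73 (limma adjusted p = 0.00266) and Sdhd by 0.86 (limma adjusted p = 0.00896), and Ndufa11 was lower by 0.68. Over the 5 scalings, Cox7a2l, Cox8a, Ndufb11 and Sdhd passed in 4 each, and Uqcrfs1, Cox7c and Ndufa11 in 3 each.

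The lines were compared with the hepatocytes to ask how close the chain's transcripts came to the target cell. Uqcrq and Ndufa11 fell in the lines. Over the 62 members the median, iHep minus PH, was -0.034, beside -0.089 over all genes, with 28 members above 0 and 34 below. As deposited 2 of 62 members (3.23%) passed, where 7.95% of all genes did.

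Uqcrq, a small accessory subunit of complex III, read 10.40, 10.36 and 10.80 on the PH arrays. It read 8.44 in 4a3, 9.63 in 4a3CK and 9.14 in 4a1CK, and 9.91 and 10.04 on MEF. All lines lay below all hepatocyte and fibroblast arrays, and 4a3CK came closest to them. The difference was -1.45 ± 0.31 (SE, 3 against 3 arrays; limma adjusted p = 0.0262). It passed in each of the 5 scalings, with limma adjusted p from 0.0197 to 0.0362. The probe set used can bind several transcripts by its name, and the gene's 3 other probe sets read between 3.68 and 5.43 on every array; without probe sets of that kind the value was 0.22 (limma adjusted p = 0.749). The call was also lost without 4a3 (0.0812), 4a1CK (0.0644), PH 1 (0.0764) or PH 2 (0.0730).

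Ndufa11, an accessory subunit of the membrane arm of complex I, read 9.30, 9.36 and 9.63 on PH, 9.16 and 9.30 on MEF, and 8.36, 8.80 and 8.49 in 4a3, 4a3CK and 4a1CK. The lines lay below all other arrays. The difference from PH was -0.88 ± 0.21 (limma adjusted p = 0.0403), and it passed in 4 of the 5 scalings; the exception was the subtraction of array medians (-0.68, limma adjusted p = 0.0511). A second probe set of Ndufa11 read 3.97 to 5.39 and gave 0.38. With the mean of all probe sets the difference did not pass (-0.25, limma adjusted p = 0.764). Nor did it pass without dim genes (0.0508), with a trended robust variance (0.0547), with only the 2 groups (0.0732) or with PH 1 and PH 2 averaged (0.106). The call was lost when any array other than 4a3CK or PH 3 was left out, with adjusted p between 0.0732 and 0.183.

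With array medians subtracted, 8 members passed against PH, 7 higher and 1 lower, where 16.8% of all genes did. Cox8a was higher by 0.80 ± 0.11 (limma adjusted p = 0.00683) and Ndufs1 by 0.74 ± 0.15 (limma adjusted p = 0.0232). The others that rose were Cox7a2l (1.05), Ndufa6 (0.85), Uqcrc2 (0.71), a core protein of complex III, Cox7a2 (0.62) and Ndufb11 (0.55), while Uqcrq fell by 1.25. As deposited, Ndufs1 read 8.23, 8.39 and 8.63 in the lines, above both MEF arrays and above PH 1 and PH 2 (both 7.48), but not above PH 3 (8.65). Cox7a2, the common isoform of its subunit, read 11.15, 11.13 and 11.12 in the lines, against 10.57, 10.53 and 11.03 on PH. The lines lay above all PH arrays, and above PH 3 by the least. Quantile normalization also left 8 members past the threshold, but 5 higher and 3 lower, where 17.0% of all genes passed, and leaving out PH 3 gave 10, 8 higher and 2 lower, where 32.5% did.

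By complex, the median of iHep minus PH was -0.034 for complex I, -0.30 for complex II, -0.26 for complex III and 0.028 for complex IV as deposited. After subtraction it was 0.16, -0.11, -0.060 and 0.22, so that the sign of complex I turned with the scaling. The median over all genes turned too, from -0.089 to 0.11. As deposited 3 members (Cox6b2, Cox7a2 and Cox8a, all of complex IV) lay above every PH array in all lines and 9 below, where 5.04% and 21.3% of all genes did. After subtraction 20 lay above and 3 below, against 28.2% and 13.7%. Within the run of sample numbers that holds the lines, the members' median against PH 3 alone was -0.40 as deposited and 0.37 after subtraction. The median over all genes moved in the same way, from -0.57 to 0.20. All 4 complexes turned from below to above 0, complex II from -0.52 to 0.25, complex III from -0.30 to 0.47 and complex IV from -0.27 to 0.50.

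**Figure D3:**
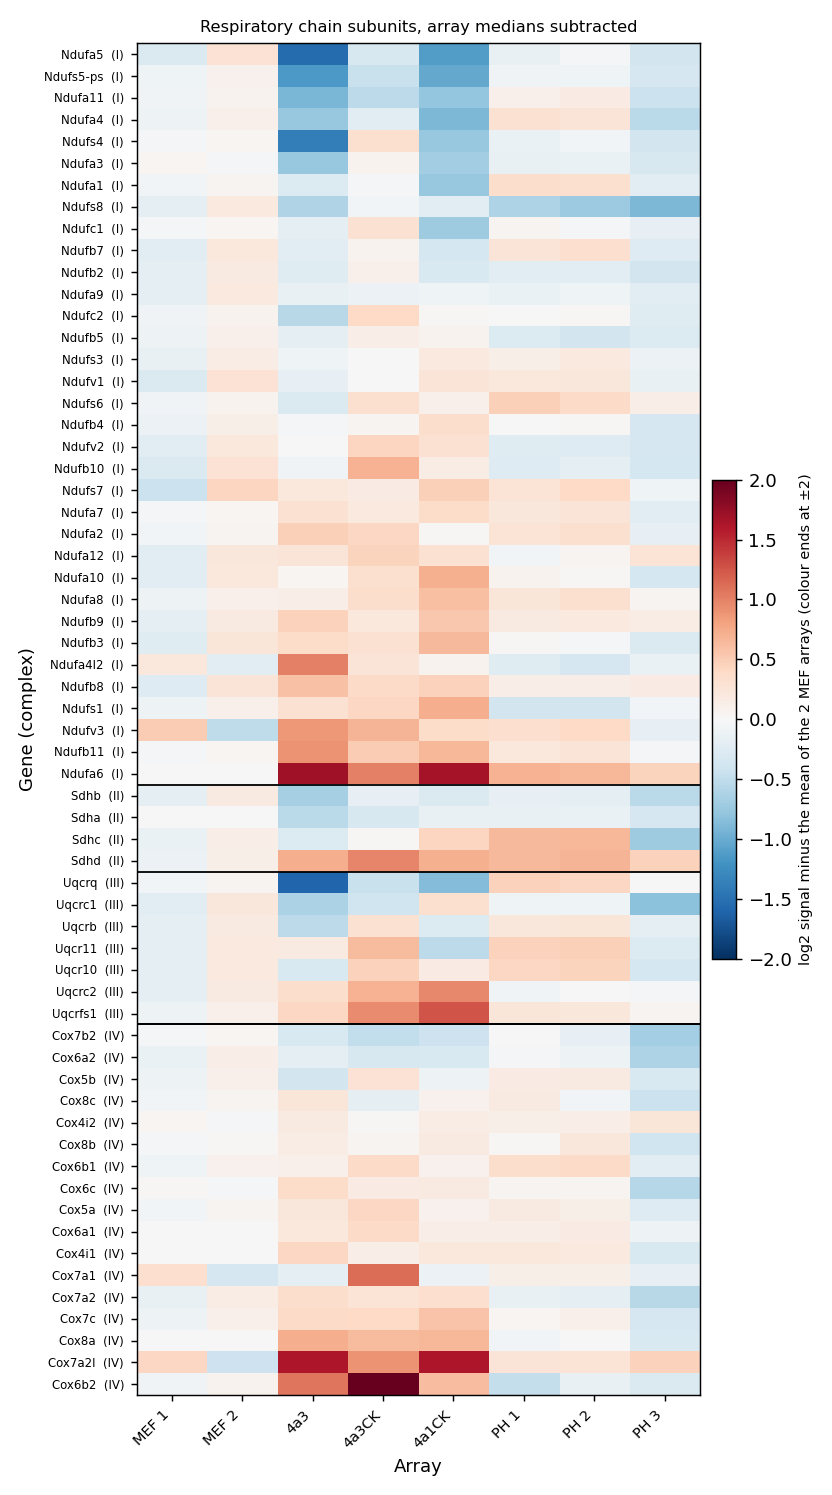
Log2 signal with array medians subtracted, minus the gene's mean over the 2 MEF arrays (colour, blue lower and red higher, ends at ±2), for the 62 subunits (rows, ordered within each complex by the mean of the lines) on the 8 arrays (columns). Ndufa6, Cox7a2l and Cox6b2 are red in all 3 lines, and Ndufa5, Ndufs4 and Uqcrq are bluer in 4a3 and 4a1CK than in 4a3CK.

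The lines differed among themselves, and with 1 array each these are differences between arrays with no test. Line 4a3CK, which received c-Myc and Klf4 beside the factors of 4a3, read higher than 4a3 by a median of 0.27 over the 62 members, beside -0.019 over all genes, with 42 members above 0. All 4 complex II members and all 7 complex III members were higher in 4a3CK, by medians of 0.31 and 0.57. The median was 0.27 for complex I and -0.037 for complex IV. Of the 62 members, 6 were higher by at least 1 (all genes 6.47%) and 0 lower (all genes 3.33%). Against 4a1CK, which received Foxa1 in place of Foxa3, 4a3CK was higher by a median of 0.15, with 5 members higher by at least 1 (all genes 6.14%) and 0 lower (all genes 4.6%). Between 4a1CK and 4a3 no member differed by 1 in either direction (all genes 3.29% higher and 2.6% lower), and the median was 0.048.

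The widest gap was that of Cox6b2, the isoform of a complex IV subunit known from testis. It read 6.02 in 4a3, 8.65 in 4a3CK and 5.56 in 4a1CK, against 4.83 and 4.98 on MEF and 4.40, 4.73 and 5.44 on PH. All lines lay above all other arrays, and 4a3CK lay 2.63 above 4a3 and 3.09 above 4a1CK, that is 6.21-fold and 8.54-fold. Because the lines spread so widely, the group difference from MEF, 1.84 ± 0.80, did not pass (limma adjusted p = 0.238). Its common partner Cox6b1 read 11.06, 11.39 and 11.03 in the 3 lines, 10.82 and 11.01 on MEF and 11.24, 11.27 and 11.54 on PH.

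Ndufs4 and Ndufa5 also read highest in 4a3CK, but lower in 4a3 than in 4a1CK. Ndufs4, an accessory subunit needed for a stable complex I, read 7.29 in 4a3, 9.03 in 4a3CK and 7.90 in 4a1CK, against 8.58 and 8.66 on MEF and 8.46, 8.53 and 9.08 on PH. Line 4a3CK thus lay with the fibroblasts and hepatocytes, and the other 2 lines below them. Ndufa5, an accessory subunit of the peripheral arm, read 7.09, 8.36 and 7.50 in the lines, 8.30 and 8.87 on MEF and 8.41, 8.54 and 9.04 on PH. Its second probe set gave gaps of 1.30 and 0.99 between 4a3CK and the other lines, against 1.28 and 0.86 for the one used. Uqcrq (1.18) and Ndufc2 (1.01) were also more than 1 higher in 4a3CK than in 4a3, and Uqcr11 (1.23) and Ndufc1 (1.09) than in 4a1CK.

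In 10 members 4a3CK read at least 0.5 above both other lines, where 10.2% of all genes did, a limit set after the values were seen. Beside Cox6b2, Ndufs4 and Ndufa5 these were Cox7a1, Ndufa3, Ndufs5-ps, Uqcrb, Ndufb10, Ndufa4 and Ndufc1. In 2 members, Ndufa6 and Cox7a2l, it read at least 0.5 below both (all genes 4.97%): Ndufa6 by 0.63 and 0.58, Cox7a2l by 0.67 and 0.64. The lowest differences of 4a3CK from 4a3 were those of Ndufa4l2 (-0.72), Cox7a2l (-0.67), Ndufa6 (-0.63) and Cox8c (-0.38). From 4a1CK the lowest were Uqcrc1 (-0.66), Cox7a2l (-0.64), Ndufa6 (-0.58) and Sdhc (-0.35). Between 4a1CK and 4a3 the widest were Uqcrc1 (0.94), Uqcrfs1 (0.82), Sdhc (0.70) and Uqcrq (0.69) upward, and Ndufa4l2 (-0.96), Uqcr11 (-0.73), Ndufc1 (-0.56) and Ndufv3 (-0.52) downward. The actin probe sets, whose 3′ minus 5′ signal rises as RNA is degraded or copied incompletely, gave 1.43 in 4a3, 0.94 in 4a1CK and 0.71 in 4a3CK, against 0.51 to 0.67 on the other arrays. The Gapdh probe sets ordered the arrays differently, with 0.31 in 4a3, 0.19 in 4a1CK and 0.20 in 4a3CK, 0.23 and 0.58 on MEF and 0.69, 0.72 and 0.12 on PH. The part of RNA quality in these gaps, or in the differences of the lines from MEF and PH, was not tested.

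**Figure D4:**
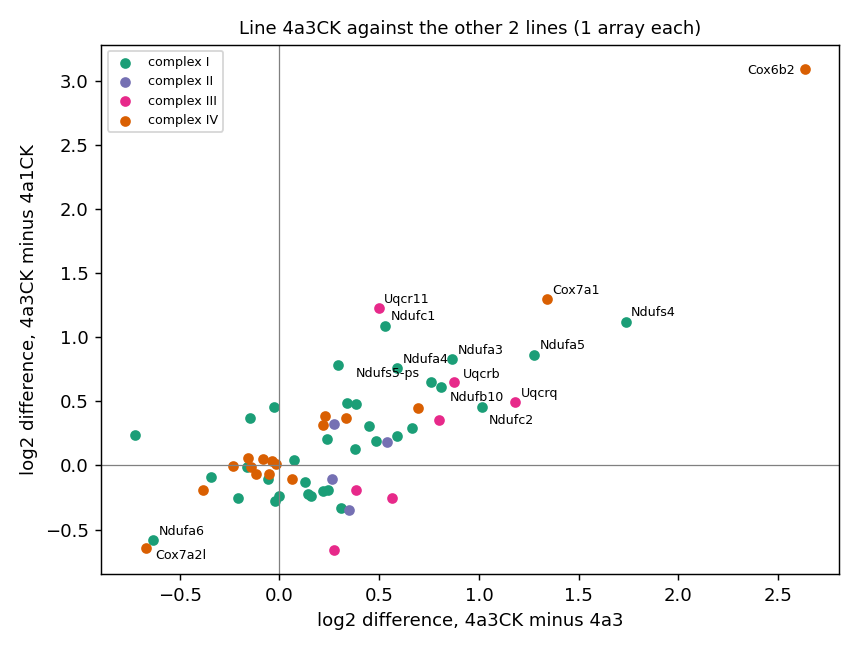
Log2 difference of line 4a3CK from 4a3 (x axis) and from 4a1CK (y axis) for the 62 subunits, 1 array per line, coloured by complex. Cox6b2 lies farthest out (2.63 and 3.09), Ndufs4, Ndufa5 and Cox7a1 lie in the upper right, and Ndufa6 and Cox7a2l lie in the lower left.

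Of the 8 members known as tissue-restricted isoforms, none passed in any comparison as deposited. The heart and muscle isoforms Cox6a2, Cox7a1 and Cox8b read at most 4.91, 4.77 and 4.65 on any array. Cox7a1 read 4.77 in 4a3CK, 3.43 in 4a3 and 3.48 in 4a1CK, but was above the 95th percentile of the array's background control probe sets on only 4 of 8 arrays. Cox8b was above it on 7, the testis isoform Cox7b2 on 4 and the lung isoform Cox4i2 on 5, while the other 58 members were above it on all 8. Cox8c, known from testis, stayed between 6.61 and 7.10 on all arrays. Ndufa4l2, a hypoxia-induced relative of Ndufa4, read 5.65 in 4a3, 4.93 in 4a3CK and 4.69 in 4a1CK, against 4.79 and 4.38 on MEF and 4.31, 4.22 and 5.28 on PH. The muscle markers had array means of 4.00 to 4.87 in all groups. Ndufa4, which bears a complex I name but is known as a subunit of complex IV, read 9.75, 10.34 and 9.58 in the lines, below 10.73, 10.68 and 10.74 on PH and 10.35 and 10.56 on MEF; the difference from PH was -0.82 ± 0.24 (limma adjusted p = 0.0754).

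Probe sets of one gene were compared where at least 2 had a mean above 4.56, the signal under which 40% of all values lie. Of 26 such members, both or all probe sets gave the same sign of PH minus MEF in 22, of iHep minus MEF in 22 and of iHep minus PH in 21. The sign depended on the probe set for Ndufs8, Ndufv1, Cox6a1 and Sdha between the lines and MEF, and for Ndufa7, Uqcr10, Ndufa12, Sdha and Ndufs7 between the lines and PH.

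Other genes of the pathway were taken from fixed lists. None of the 18 ATP synthase genes passed in any comparison as deposited, where 5.97% to 7.95% of all genes did. Their medians were 0.063 for PH minus MEF, -0.015 for iHep minus MEF and -0.10 for iHep minus PH. Of 37 assembly factors measured, 0 passed between PH and MEF, where 5.97% of all genes did. Between the lines and MEF 1 (2.7%) passed, where 6.66% of all genes did. Cox18, which helps to insert a complex IV core subunit into the membrane, fell by 1.41 ± 0.29 (limma adjusted p = 0.0246). It read 8.43 and 7.76 on MEF, 6.34, 6.81 and 6.91 in the lines and 7.91, 8.15 and 8.22 on PH, so that the lines lay below both other groups. Against PH 8.11% of the assembly factors passed, beside 7.95% of all genes. Cox18 fell there by 1.41 ± 0.26 (limma adjusted p = 0.0141), and the complex I assembly factor Timmdc1 fell by 1.08 ± 0.25 (limma adjusted p = 0.0341). Cox14, which assists complex IV assembly, read 9.53, 9.20 and 9.34 in the lines and 8.17, 8.17 and 8.84 on PH and rose by 0.96 ± 0.24 (limma adjusted p = 0.0464).

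Of 15 genes for cytochrome c and ubiquinone, none passed as deposited. After subtraction of array medians 5 (33.3%) rose in the lines against MEF, where 16.4% of all genes passed. Coq9, which serves ubiquinone synthesis, led them (1.57 after subtraction, limma adjusted p = 0.0224). It read 7.69, 8.30 and 8.43 in the lines and 6.48 and 6.53 on MEF. Of 19 regulators of mitochondrial genes, 1 passed as deposited, in the lines against PH (5.26%, all genes 7.95%). Polrmt, the mitochondrial RNA polymerase, fell there by 0.95 ± 0.22 (limma adjusted p = 0.0344). Tfam, which packages mitochondrial DNA, read 7.26 and 7.45 on MEF, 7.79, 8.10 and 7.92 in the lines and 7.86, 7.82 and 8.74 on PH. It passed against MEF after subtraction, in PH (0.53, limma adjusted p = 0.0464) and in the lines (0.52, limma adjusted p = 0.0336). On that scale 2 of the 19 regulators (10.5%) passed in PH against MEF, where 8.35% of all genes did. In the lines against MEF 3 (15.8%) passed, where 16.4% of all genes did. Twnk (0.64 in PH and 0.84 in the lines) also passed in both, and Tfb2m (1.13) in the lines. Of 12 citric acid cycle genes, 1 passed as deposited, in the lines against PH (8.33%, all genes 7.95%). Ogdh, of the oxoglutarate dehydrogenase complex, read 5.50, 6.33 and 6.11 in the lines and 7.36, 7.46 and 7.17 on PH. It fell by 1.35 ± 0.25 (limma adjusted p = 0.0151). Genes of the mitochondrial genome itself were not analysed here.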

How the data were processed

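Total RNA of 8 samples was hybridized to an Affymetrix mouse perfect-match 3′ array, 1 array each. The authors deposited log2 signals per probe set, made in Partek by RMA (robust multi-array averaging), per the submitters' processing notes, with versions not given in the sources used here. Of 45141 probe sets, 28898 name 1 gene, 551 several and 15588 none, beside 104 controls; symbols came from the platform annotation. Values were used as deposited, with 1 probe set per gene, for 17097 genes. Groups were compared with limma 3.58.1 (lmFit, eBayes, R 4.3.3, two-sided) in 1 fit of all arrays, with 5 residual degrees of freedom and Benjamini-Hochberg adjustment over all genes; the script was checked on simulated data. The small number of arrays limits the precision. The members, pathway lists, markers and tests were chosen with earlier results of these data known. Named are passing members with groups that do not overlap, all tissue-restricted and core members, the 4 widest differences per pair of lines in each direction, and up to 4 passing genes per list; genes passing only after another scaling were named after their values were seen. The replicate numbers were not used as pairs in the main fit. Deviations of MEF 1 and PH 1 from their group means correlated at -0.20 over genes. That single value cannot show whether the samples were paired. Alternatives were array medians subtracted, quantile normalization, other probe set rules, a filter on dim genes (signal of 4.56, percentile 40), a trended robust variance, fits of 2 groups, blocks, a minimum log2 difference of 1 and arrays left out. Promoters and coordinates are RefSeq's for GRCm38.p6; for 14 members the table has no promoter.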

Additional observations from a re-analysis of the deposited data

How the results depend on the processing

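With 2 or 3 arrays per group, the counts of members that passed moved with the scaling and with PH 3. The share of all genes that passed moved as well. Between the lines and MEF it was 6.66% as deposited, 16.4% with array medians subtracted and 33.9% without PH 3. Between the lines and PH it was 7.95%, 16.8% and 32.5% in the same order, and 17.0% with quantile normalization. For PH and MEF it was 5.97% as deposited and 8.35% with array medians subtracted. The other settings have no such share here, so their counts cannot be read against all genes. Between PH and MEF, 0 members passed as deposited and 1 passed with array medians subtracted, with quantile normalization, with the runs of sample numbers as a block, on MEF 1, MEF 2, PH 1 and PH 2 alone with no block, and without PH 3 with medians subtracted; 2 passed without PH 3 and 4a3CK. Between the lines and MEF, 1 passed as deposited, 7 with array medians subtracted, 8 with quantile normalization, 5 when only the 2 groups entered the fit, 9 without PH 3 with medians subtracted and 16 without PH 3 and 4a3CK; leaving out 1 array at a time gave 0 to 13. Between the lines and PH, 2 passed as deposited, 0 with the mean of all probe sets or with PH 1 and PH 2 averaged, 1 without probe sets that can bind several transcripts, without dim genes, with a trended robust variance, with only the 2 groups or with a log2 difference of at least 1, 8 with array medians subtracted or quantile normalization, 7 without PH 3 with medians subtracted and 17 without PH 3 and 4a3CK; leaving out 1 array at a time gave 0 to 10. The settings on 4 arrays without a block, with crossed pairing and without PH 3 and 4a3CK were chosen after seeing the data. The cause of these changes was not tested. The value of Uqcrq between the lines and PH turned from -1.45 to 0.22 without probe sets that can bind several transcripts, where a probe set near background took its place, and was -0.37 with the mean of all its probe sets. The members' median between PH and MEF was 0.093 to 0.33 on the deposited scale, -0.015 with array medians subtracted, 0.12 when PH 3 was left out as well, and 0.105 with quantile normalization; that between the lines and MEF ranged from 0.014 to 0.29 and that between the lines and PH from -0.33 to 0.16. With the replicate number as a block on MEF 1, MEF 2, PH 1 and PH 2, which leaves 1 residual degree of freedom, 0 members passed between PH and MEF; a crossed pairing also gave 0.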
